A study of Caenorhabditis elegans with 9 samples.

Results

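The genes described here encode proteins with MATH, BTB or F-box domains, named bath, btb, math, fbxa, fbxb and fbxc in Caenorhabditis elegans. They were taken as every probe set whose platform annotation lists a single gene with 1 of these names followed by a number. That rule gave 413 genes of the 17118 that the array measures with a probe set of their own, in 426 of its 22548 probe sets that are not controls. RNA abundance had been measured on 9 Affymetrix arrays of whole animals labelled as first-stage larvae, 3 arrays a group. The aex-3 SUMO group is strain JS62, which carries the transgene aex-3::His-SUMO-1, a His-tagged worm SUMO-1 under the promoter of the neuronal gene aex-3. The myo-4 SUMO group is strain JS63 with myo-4::His-SUMO-1, where myo-4 is another name of unc-54, a myosin gene of body wall muscle. N2, the wild-type laboratory strain without a transgene, is the control of both. Animals of all groups ate OP50 bacteria and were synchronised by bleaching. Replicates are separate populations of worms by their labels, each strain is 1 line, and RNA came from the whole body, so that fewer cells of a type and less RNA per cell cannot be told apart.

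Most of these proteins are thought to choose what a cell marks with ubiquitin. A protein with a BTB domain binds the scaffold CUL-3, and in bath proteins a MATH domain beside it holds the substrate. An F-box binds a Skp1-related protein, encoded in the worm by the skr genes, which connects it to the scaffold CUL-1 or CUL-6 in an SCF ligase. The math genes encode MATH proteins without a BTB domain, among them math-33, a homologue of the deubiquitinating enzyme USP7. The fbxa, fbxb and fbxc genes differ in the domain that follows the F-box. All 6 families have grown into large, fast-changing sets in nematodes, often as neighbouring copies, and the substrate of nearly every member is unknown.

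Signal (intensity) is given per array in the order of the replicate numbers, means are ± SD with n = 3, and changes are log2 fold changes ± SE from limma on log2(signal + 1.623), with p adjusted over all 14204 probe sets tested. The small constant draws changes of dim genes toward 0. The array table holds no detection call, so a probe set was counted as above background where it exceeded the 40th percentile of its array on at least 3 of the 9 arrays. That percentile lay at a signal of 12.9 to 16.9. The brightest of the 5 yeast control probe sets, which have no target in the worm, reached 7.31 to 19.1, and the dimmest of the 6 bioB spike-in probe sets lay at 23.6 to 38.3.

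The samples labelled as first-stage larvae carried bright markers of the adult germ line, and several marker lists differed between the transgenic lines and N2. Of 22 oocyte and eggshell markers, all above background, 20 were higher in each line. Their summed signal was 24020 to 25720 in aex-3 SUMO arrays and from 23320 to 26200 in those of myo-4 SUMO, against 12120 to 19750 in N2. The 16 intestine markers summed to 16850 to 18800 in aex-3 SUMO arrays and from 15230 to 18840 in those of myo-4 SUMO, against 26880 to 31620 in N2, with 13 lower in each line. Neuronal markers were lower for 11 of 15 in aex-3 SUMO and 10 of 15 in myo-4 SUMO, body wall muscle markers for 10 of 15 in each, and hypodermis markers for 7 and 4 of 13. Sperm markers were called lower for 4 and 5 of 28, and yolk markers higher for 4 and 3 of 5. In these lists 1 neuronal and 1 body wall muscle marker were higher in each line. So were 1 sperm marker in aex-3 SUMO, and 1 intestine and 1 hypodermis marker in myo-4 SUMO. Over all probe sets tested, 24.1% were higher and 24% lower in aex-3 SUMO, and 24% higher and 20.3% lower in myo-4 SUMO. No marker was listed at 0 on any array. The part of these shifts in the results below was not tested.

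Of the 426 probe sets, 141 (33.1%), from 137 genes, were above background, against 63% of all probe sets. The families differed in this. Above background were 25 of 42 bath probe sets (59.5%), 8 of 18 btb (44.4%), 75 of 175 fbxa (42.9%), 17 of 49 math (34.7%), 13 of 46 fbxc (28.3%) and 3 of 96 fbxb (3.12%). On all 9 arrays 74 of the 426 exceeded the threshold, on no array 255, and on 1 or 2 arrays 30. The number above it on all 3 arrays of a group was 107 in aex-3 SUMO, 98 in myo-4 SUMO and 99 in N2. The median adaptor probe set stood at percentile 24.9 to 25.6 of all probe sets in aex-3 SUMO. In myo-4 SUMO this rank was 23.8 to 24.7, and in N2 it was 25.2 to 26.5. By position, 57 of 206 probe sets on chromosome II were above background, 41 of 95 on V, 24 of 59 on III, 10 of 28 on I, 6 of 20 on IV and 3 of 18 on X. Of 73 probe sets of genes annotated as pseudogenes, 20 were above background.

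Only 16 of the 426 had a mean signal over 100. The brightest was a probe set of bath-42, with 641, 605 and 627 in aex-3 SUMO, 610, 618 and 606 in myo-4 SUMO and 640, 402 and 375 in N2. The brightest F-box probe sets were those of fbxa-215, fbxa-156 and fbxa-210, the brightest of the math family were math-33 and math-20, and the brightest of the btb family were btb-19 and btb-20. At the other end, fbxb-57 and fbxb-41 were among the 3 fbxb probe sets that counted as above background. The signal of fbxb-57 was 13 ± 4.01 in aex-3 SUMO, 15.6 ± 1.84 in myo-4 SUMO and 20.4 ± 7.03 in N2, and that of fbxb-41 was 13.9 ± 3.59, 17.5 ± 0.916 and 19.5 ± 5.29 in the same groups. Both sat within reach of the yeast controls, and neither passed the test in either line.

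**Figure D1:**
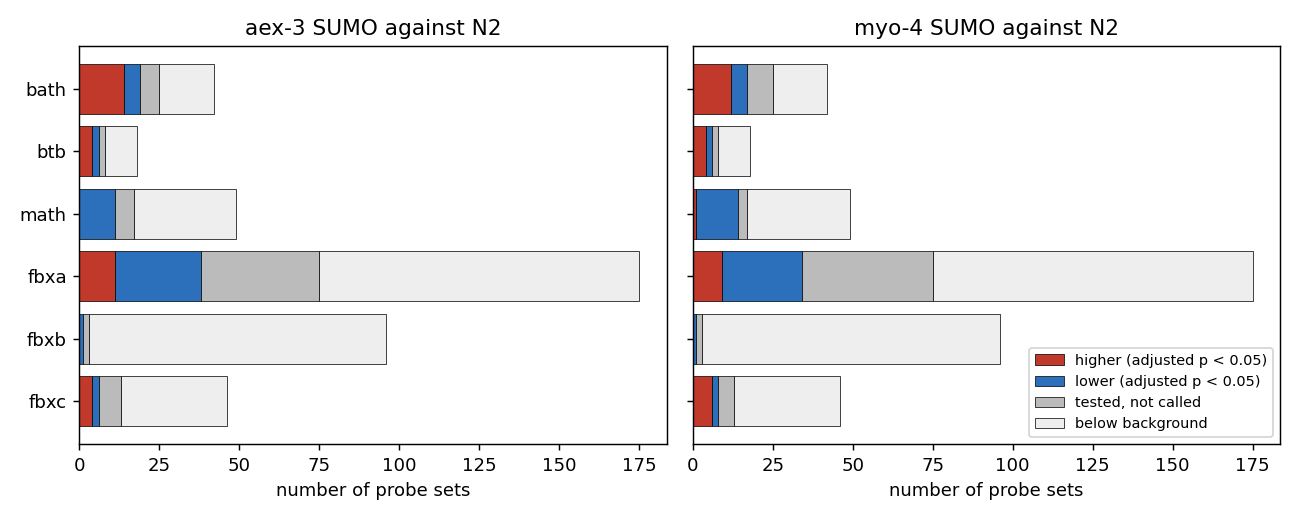
Number of probe sets (x axis) in each of the 6 gene families (y axis) that were higher, lower, tested without a call, or below background, for aex-3 SUMO against N2 on the left and myo-4 SUMO against N2 on the right. The red segments are widest for bath (14 and 12 probe sets), math has 0 and 1, and nearly all of the 96 fbxb probe sets are below background.

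The first comparison set aex-3 SUMO against N2, to see how the adaptor genes stood in animals with SUMO-1 under a neuronal promoter. Of the 141 probe sets above background, 33 rose and 48 fell at an adjusted p under 0.05, where 48.1% of all probe sets tested were called, 24.1% higher and 24% lower. The median log2 change of the 141 was -0.15, and that of all 14204 was -0.04. The families went different ways. In bath, 14 rose and 5 fell, and in btb 4 rose and 2 fell. In math none of 17 rose and 11 fell. In fbxa 11 rose and 27 fell, in fbxc 4 rose and 2 fell, and 1 of 3 fbxb probe sets fell. The median change was 0.60 in bath, 0.50 in btb, 0.17 in fbxc, -0.17 in fbxa, -0.57 in fbxb and -0.93 in math. Without N2 replicate 3 or any 1 of the aex-3 SUMO arrays, 1 fbxc probe set fell. At a fitted change of 2-fold or more, 12 of the 141 rose and 22 fell, where 3.07% and 6.52% of all probe sets did.

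In the second comparison, of myo-4 SUMO with N2, SUMO-1 stood under a muscle promoter, and the N2 arrays were the same ones. Of the 141, 32 rose and 48 fell, where 44.4% of all probe sets were called, 24% higher and 20.3% lower. The median log2 change was -0.17, against 0.0039 over all probe sets. In bath 12 rose and 5 fell (median 0.48), in btb 4 rose and 2 fell (0.46), and in fbxc 6 rose and 2 fell (0.16). In fbxa 9 rose and 25 fell (median -0.24), in math 1 rose and 13 fell (-0.92), and 1 of 3 fbxb probe sets fell (-0.30). At a fitted 2-fold or more, 5 rose and 22 fell, where 2.6% and 5.32% of all probe sets did. Without myo-4 SUMO replicate 1, 20 adaptor probe sets rose, 3 of them fbxa, and without N2 replicate 1, 14 fbxa rose. The btb rises numbered 2 without N2 replicate 1, aex-3 SUMO replicate 1, or myo-4 SUMO replicate 1 or 2, and also under the replicate block and with a pseudocount of 16. The fbxc rises numbered 3 without N2 replicate 1 or myo-4 SUMO replicate 1 or 2. Only 1 fbxc probe set fell without N2 replicate 3 or any 1 of the myo-4 SUMO arrays.

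The balance over all members changed with the scaling, and that of bath and math kept its direction. Calls that went up made 40.7% of the members' calls in aex-3 SUMO as deposited, 51.9% after quantile normalization and 54.1% after centring each array on its median, which moved the median of all probe sets to 0.19. Over all probe sets the shares were 50.1%, 55.5% and 71.9% under the same scalings. For myo-4 SUMO the shares were 40%, 48.0% and 52.6%, against 54.2%, 56.1% and 70.4% over all probe sets, and the median of all probe sets under centring was 0.15. The members' share lay below that of all probe sets under each scaling. Under quantile normalization 16 bath probe sets rose and 5 fell in aex-3 SUMO and 14 rose and 5 fell in myo-4 SUMO, while math had 0 higher and 10 lower, and 0 higher and 11 lower. Under median centring the bath counts were 18 higher and 5 lower, and 16 higher and 5 lower. Those of math were 0 higher and 10 lower, and 1 higher and 11 lower. For fbxa the excess of falls shrank to 18 higher and 21 lower in aex-3 SUMO and 12 higher and 20 lower in myo-4 SUMO with quantile normalization. With median centring it was 20 each way, with a median change of 0.05, in aex-3 SUMO, and 14 higher and 18 lower in myo-4 SUMO. Relative to the median of all probe sets, the fbxa median was -0.13 as deposited and -0.14 with median centring in aex-3 SUMO, and -0.24 under both in myo-4 SUMO. The btb counts were 4 higher and 2 lower in each line under all 3 scalings, and the fbxc medians stayed above 0.

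Some probe sets passed the threshold through 1 group alone. Among the 141 were 7 probe sets above background on all 3 N2 arrays and on no other array, namely both of bath-26 and those of bath-47, fbxa-188, fbxa-5, math-21 and math-24. Another 2, of fbxa-140 and fbxa-191, were above it on all 3 aex-3 SUMO arrays and on no other. Others, bath-21 among them, passed on arrays of the transgenic lines alone, with no N2 array above the threshold. All such probe sets entered the test through the groups in which they were brighter, so that the filter favoured a difference in that direction. In aex-3 SUMO neither fbxa-140 (log2 change 0.23) nor fbxa-191 (0.51) was called against N2. The rises in both lines include bath-21, and how many rises entered through the lines alone was not counted. Of the 7, all 7 are among the falls in aex-3 SUMO and 6 among those in myo-4 SUMO, and no p is given below for a gene that entered this way. Where a probe set stayed under the threshold on every array of a group, the difference is given below as a bound, computed against the lowest signal counted as above background on each array, or the probe set's own signal where that was higher. N2 replicate 3 was the highest of the N2 arrays in 37 of the 48 falls in aex-3 SUMO and 38 of the 48 in myo-4 SUMO, against 53.5% and 58.2% of all falls on the array. Without that array 32 rose and 43 fell in aex-3 SUMO, and 27 rose and 38 fell in myo-4 SUMO.

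**Figure D2:**
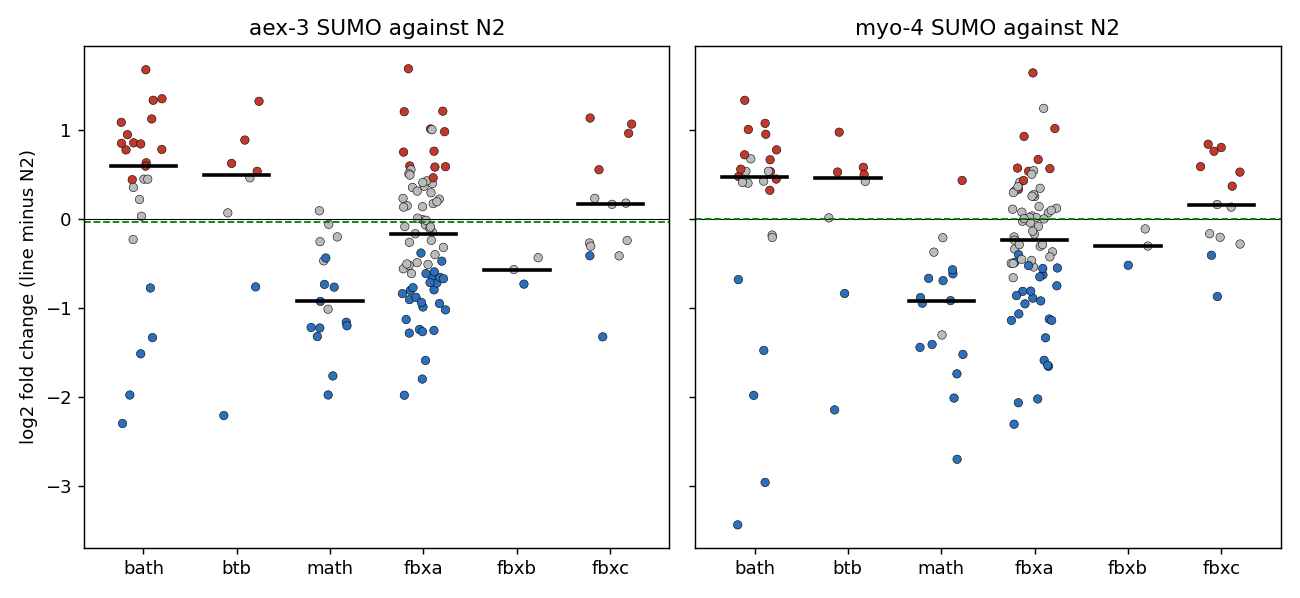
Log2 fold change against N2 (y axis) of each of the 141 probe sets above background, by family (x axis), for aex-3 SUMO on the left and myo-4 SUMO on the right. Red points passed the test higher, blue ones lower and grey ones did not, thick bars are family medians and the dashed green line is the median of all probe sets tested. The bath median lies at 0.60 and 0.48 and the math median at -0.93 and -0.92.

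Among the bath genes, the adaptors that pair MATH with BTB, bath-1 rose most. Its signal was 57.7, 56.1 and 61.2 in aex-3 SUMO and 50.2, 44.4 and 42.4 in myo-4 SUMO, against 14.3, 22.5 and 15.4 in N2. Every transgenic array lay above every N2 array. The log2 change was 1.68 ± 0.17 in aex-3 SUMO (adjusted p = 3.11e-05) and 1.34 ± 0.17 in myo-4 SUMO (adjusted p = 0.000108). A brighter gene, bath-41, had 405, 323 and 352 in aex-3 SUMO and 338, 311 and 370 in myo-4 SUMO, against 188, 163 and 154 in N2. Its groups did not overlap either, with changes of 1.09 ± 0.12 (adjusted p = 5.41e-05) and 1.01 ± 0.12 (adjusted p = 8.16e-05). The gene bath-15 had 110, 103 and 96.3 in aex-3 SUMO and 81.5, 76.05 and 78.9 in myo-4 SUMO, against 61.5, 62.0 and 46.3 in N2. It rose by 0.86 ± 0.14 (adjusted p = 0.000355) in aex-3 SUMO and by 0.48 ± 0.14 (adjusted p = 0.0127) in myo-4 SUMO. The annotated pseudogene bath-12 averaged 36.1 ± 3.96 in aex-3 SUMO and 27.7 ± 6.33 in myo-4 SUMO, against 13.8 ± 4.67 in N2, and passed in both comparisons.

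Others of the family rose from near the background. The signal of bath-21 was 19.3, 24.8 and 22.1 in aex-3 SUMO and 22.4, 17.9 and 14.01 in myo-4 SUMO, against 8.79, 7.22 and 6.90 in N2. No N2 array reached the threshold, so the transgenic lines were at least 1.33-fold and at least 1.08-fold higher. For bath-4 the values were 28.5, 31.4 and 32.8 in aex-3 SUMO and 22.3, 19.7 and 18.1 in myo-4 SUMO, against 19.1, 14.5 and 8.23 in N2. It rose in aex-3 SUMO by 1.13 ± 0.25 (adjusted p = 0.0029), and in myo-4 SUMO, where the ranges overlap, the difference was 0.54 ± 0.25 (adjusted p = 0.0969).

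Against the run of their family, bath-26, bath-46 and bath-47 were lower in the lines. These 3 genes are neighbours on chromosome II in the gene table of assembly WBcel235. One probe set of bath-26 had 11.1, 9.76 and 7.78 in aex-3 SUMO and 1.81, 6.74 and 4.54 in myo-4 SUMO, against 34.9, 29.8 and 71.6 in N2. All transgenic arrays were below background, and the bound was at least 3.12-fold lower in aex-3 SUMO and at least 2.89-fold lower in myo-4 SUMO. The other probe set, at 10.1, 5.01 and 5.78 in aex-3 SUMO, 3.17, 0.692 and 3.22 in myo-4 SUMO and 31.9, 27.6 and 68.9 in N2, gave at least 2.92-fold and at least 2.70-fold lower. For bath-47 the signal was 10.0, 7.85 and 5.50 in aex-3 SUMO and 1.38, 6.72 and 10.2 in myo-4 SUMO, against 25.5, 23.8 and 25.1 in N2. That is at least 1.84-fold lower in aex-3 SUMO and at least 1.70-fold lower in myo-4 SUMO. The third of the neighbours, bath-46, averaged 11.1 ± 3.63 in aex-3 SUMO and 9.87 ± 3.00 in myo-4 SUMO, against 30.8 ± 10.0 in N2. Of the N2 arrays, replicate 3 was the highest for bath-26 and bath-46 and not for bath-47.

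The btb genes, with a BTB domain and no MATH domain, had only 8 probe sets above background. Adjacent on chromosome II, btb-19 and btb-20 were the brightest. The signal of btb-19 was 177, 135 and 144 in aex-3 SUMO and 151, 151 and 138 in myo-4 SUMO, against 94.6, 112 and 87.01 in N2, and that of btb-20 averaged 136 ± 4.57, 133 ± 10.8 and 93.7 ± 12.6 in the same groups. Both genes rose in both comparisons, by 0.63 ± 0.14 and 0.58 ± 0.14 for btb-19 and by 0.54 ± 0.12 and 0.50 ± 0.12 for btb-20 (adjusted p = 0.00261, adjusted p = 0.00444, adjusted p = 0.00383 and adjusted p = 0.00647). The values of btb-6 scattered, with 52.9, 22.8 and 56.5 in aex-3 SUMO and 37.5, 35.9 and 24.02 in myo-4 SUMO, against 8.20, 21.9 and 19.7 in N2. Its change of 1.32 ± 0.36 in aex-3 SUMO (adjusted p = 0.00986) lost its call without aex-3 SUMO replicate 3, and that of 0.98 ± 0.36 in myo-4 SUMO (adjusted p = 0.0442) lost it under 8 of 16 alternatives. The largest fall of the family was that of btb-17, at 35.4, 32.7 and 22.1 in aex-3 SUMO and 40.9, 26.7 and 26.99 in myo-4 SUMO, against 94.8, 131 and 233 in N2. No transgenic array reached the lowest N2 array, and the change was -2.21 ± 0.28 (adjusted p = 0.000103) in aex-3 SUMO and -2.15 ± 0.28 (adjusted p = 0.000129) in myo-4 SUMO.

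All 17 math probe sets above background but 1 were of genes on chromosome II, and none of those 16 rose in either comparison. The signal of math-38 was 34.4, 41.5 and 22.2 in aex-3 SUMO and 19.6, 12.98 and 24.96 in myo-4 SUMO, against 126, 90.7 and 192 in N2. The groups stood apart, and the change was -1.98 ± 0.29 in aex-3 SUMO (adjusted p = 0.000227) and -2.70 ± 0.29 in myo-4 SUMO (adjusted p = 3.61e-05). For math-24 the values were 9.61, 9.07 and 10.2 in aex-3 SUMO and 9.97, 7.71 and 6.21 in myo-4 SUMO, all below background, against 41.9, 28.9 and 40.6 in N2. It was at least 2.72-fold lower in aex-3 SUMO and at least 2.51-fold lower in myo-4 SUMO. Likewise math-21 was at least 1.89-fold and at least 1.75-fold lower, with 10.1 ± 1.82 in aex-3 SUMO, 6.73 ± 2.33 in myo-4 SUMO and 26.01 ± 6.72 in N2.

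Falls were smaller for math-4 and math-20. The signal of math-4 was 73.5, 86.2 and 64.4 in aex-3 SUMO and 69.6, 68.2 and 67.0 in myo-4 SUMO, against 114, 114 and 160 in N2, and it fell by 0.77 ± 0.15 and 0.88 ± 0.15 on the log2 scale (adjusted p = 0.00158 and adjusted p = 0.000725). For math-20, measured by a probe set of the kind that may also detect related transcripts, the means were 102 ± 8.03 in aex-3 SUMO, 88.3 ± 7.99 in myo-4 SUMO and 178 ± 59.2 in N2, with changes of -0.74 ± 0.19 and -0.95 ± 0.19 (adjusted p = 0.00805 and adjusted p = 0.00206). The exception of the family is math-33, on chromosome V, which encodes the deubiquitinating enzyme. Its signal was 158.4, 192 and 188 in aex-3 SUMO and 228, 242 and 213 in myo-4 SUMO, against 152, 186 and 167 in N2. The aex-3 SUMO and N2 ranges overlap (0.09 ± 0.12, adjusted p = 0.552), and myo-4 SUMO lay above N2 on every array (0.43 ± 0.12, adjusted p = 0.0123). That call ended under quantile normalization and without myo-4 SUMO replicate 2. Between the lines the difference of myo-4 SUMO from aex-3 SUMO was 0.34 and did not pass (adjusted p = 0.408).

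**Figure D3:**
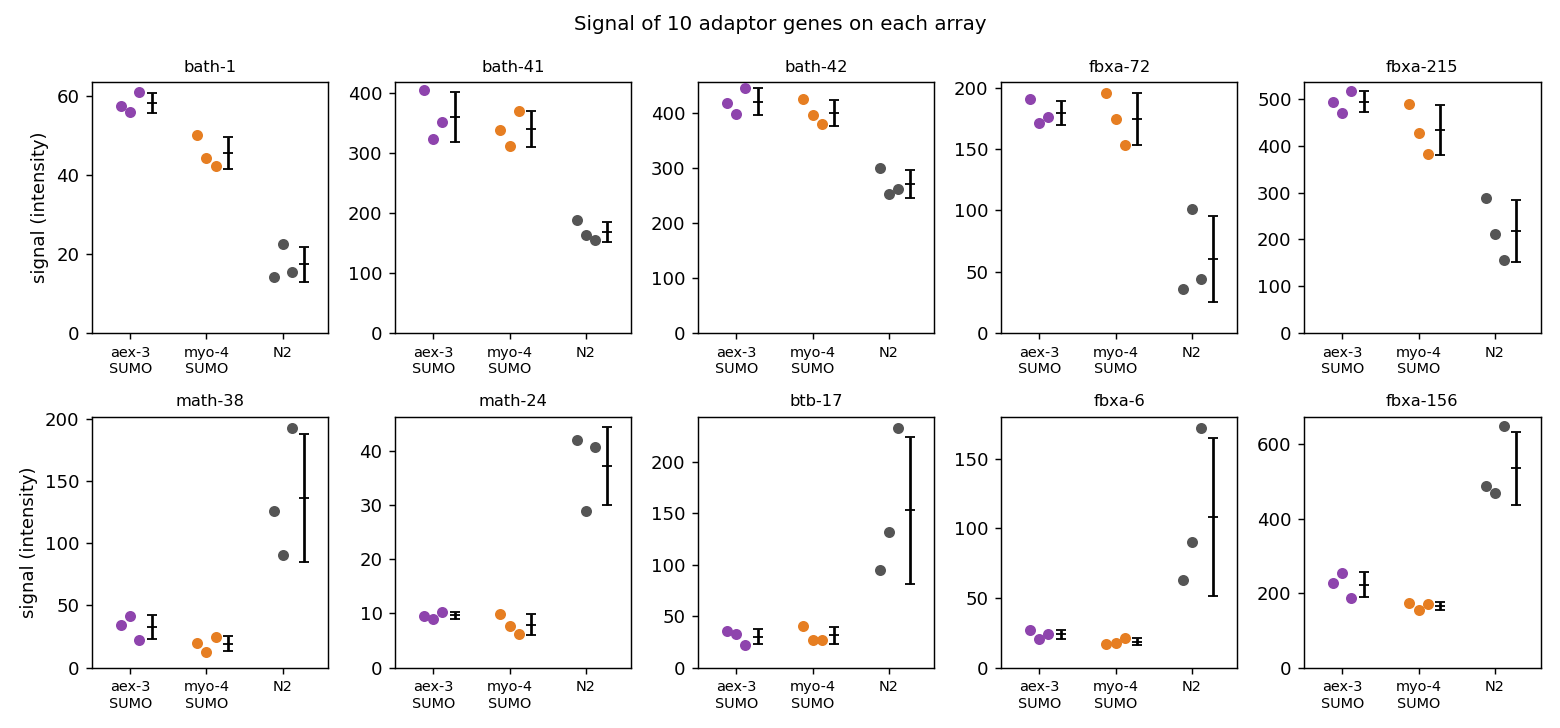
Signal (y axis, linear, from 0) of 10 genes on each of the 9 arrays, by group (x axis), with 1 point an array in replicate order and the bar beside them showing mean ± SD. The upper 5 genes (bath-1, bath-41, bath-42, fbxa-72 and fbxa-215) lie higher in aex-3 SUMO and myo-4 SUMO than in N2, and the lower 5 (math-38, math-24, btb-17, fbxa-6 and fbxa-156) lie lower, with N2 replicate 3 on top for all of these but math-24.

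The fbxa genes, the largest of the F-box families on the array, held the largest rise of all members. The signal of fbxa-72 was 191, 172 and 176 in aex-3 SUMO and 196, 174 and 153 in myo-4 SUMO, against 36.1, 101 and 44.0 in N2. The groups did not overlap although N2 replicate 2 stood far above the other N2 arrays. The change was 1.69 ± 0.27 in aex-3 SUMO (adjusted p = 0.000401) and 1.64 ± 0.27 in myo-4 SUMO (adjusted p = 0.000528). One of the brightest members, fbxa-215, had 495, 471 and 518 in aex-3 SUMO and 490, 428 and 383 in myo-4 SUMO, against 288, 213 and 155.7 in N2, with changes of 1.21 ± 0.18 (adjusted p = 0.00024) and 1.02 ± 0.18 (adjusted p = 0.000793). The genes fbxa-107 and fbxa-210, neighbours on chromosome V, both passed higher in both comparisons. For fbxa-107 the values were 71.9, 69.8 and 82.4 in aex-3 SUMO and 57.6, 43.9 and 41.6 in myo-4 SUMO, against 27.6, 39.5 and 28.2 in N2, which gave 1.21 ± 0.17 (adjusted p = 0.000191) and 0.57 ± 0.17 (adjusted p = 0.0184). The second of these calls ended without N2 replicate 3 and without myo-4 SUMO replicate 1. The myo-4 SUMO call of fbxa-210 (0.43, adjusted p = 0.0144) ended under quantile normalization and without myo-4 SUMO replicate 1. The dim gene fbxa-153 averaged 17.2 ± 1.48 in aex-3 SUMO and 16.2 ± 2.63 in myo-4 SUMO, against 7.92 ± 2.67 in N2, and was at least 1.04-fold higher in aex-3 SUMO.

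More fbxa probe sets fell than rose as deposited and under quantile normalization, and with median centring as many rose as fell in aex-3 SUMO, where 71.9% of the calls over all probe sets were higher. The signal of fbxa-6 was 27.3, 20.6 and 24.2 in aex-3 SUMO and 17.2, 17.5 and 21.7 in myo-4 SUMO, against 62.7, 90.01 and 172 in N2. Its change was -1.98 ± 0.28 (adjusted p = 0.000177) in aex-3 SUMO and -2.31 ± 0.28 (adjusted p = 7.48e-05) in myo-4 SUMO. The brightest gene to fall, fbxa-156, had 227, 255 and 187 in aex-3 SUMO and 175, 155 and 171 in myo-4 SUMO, against 489, 469 and 648 in N2, with no overlap between either line and N2. It changed by -1.25 ± 0.15 (adjusted p = 6.14e-05) and -1.66 ± 0.15 (adjusted p = 1.04e-05). For fbxa-157 the values were 36.2, 50.98 and 32.0 in aex-3 SUMO and 29.9, 27.2 and 40.7 in myo-4 SUMO, against 94.3, 136 and 214 in N2, and the change was -1.80 ± 0.26 (adjusted p = 0.000215) and -2.07 ± 0.26 (adjusted p = 9.86e-05). A further probe set of the array is annotated to both of these genes, so that their transcripts may not be told apart fully, and it was left out. The means of fbxa-24 were 19.4 ± 1.56 in aex-3 SUMO, 11.3 ± 3.96 in myo-4 SUMO and 52.4 ± 23.5 in N2, and those of fbxa-59 were 18.5 ± 1.74, 19.2 ± 6.38 and 61.4 ± 23.5 in the same groups. Like that of math-20, the probe set of fbxa-24 is of the kind that may also detect related transcripts.

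The falls of fbxa were gathered on chromosome III, a grouping made after the values were seen and therefore given with no test. Of 20 fbxa probe sets above background there, none rose in either comparison. In aex-3 SUMO 15 fell, where 17.5% of the tested probe sets of 1 gene on that chromosome fell and 30% rose, and the median log2 change was -0.69. In myo-4 SUMO 12 fell, where 14.9% of that chromosome's did, and the median was -0.64. On chromosome V, of 36 fbxa probe sets, 7 rose and 10 fell in aex-3 SUMO and 6 rose and 10 fell in myo-4 SUMO, and on chromosome I, of 9, 2 rose and none fell in each line. Of all tested probe sets of 1 gene on V, 22.1% rose and 27.9% fell in aex-3 SUMO, and 21.4% and 24.4% in myo-4 SUMO. Of those on I, 32.1% rose in each line, and 16.7% fell in aex-3 SUMO and 15.3% in myo-4 SUMO. The 20 on chromosome III include 3 of the kind that may detect related transcripts. With median centring 9 fell in aex-3 SUMO and 8 in myo-4 SUMO, with quantile normalization 10 and 8, and without aex-3 SUMO replicate 1 the count for that line was 9. No setting gave a rise.

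Partners of CUL-6 in the response of the gut to intracellular pathogens, fbxa-75 and fbxa-158, were dim. No array placed fbxa-75 above background, and its signal was 4.07, 0.882 and 4.93 in aex-3 SUMO, 0.135, 3.07 and 0.438 in myo-4 SUMO and 3.79, 3.29 and 2.04 in N2. For fbxa-158 the values were 5.55, 6.70 and 6.27 in aex-3 SUMO and 1.18, 2.73 and 2.37 in myo-4 SUMO, against 20.5, 11.6 and 39.01 in N2, where 2 arrays exceeded the threshold. It was therefore not tested. In a fit with no filter its change was -1.55 ± 0.39 in aex-3 SUMO (adjusted p = 0.0114) and -2.64 ± 0.39 in myo-4 SUMO (adjusted p = 0.000655). In that fit, of the 285 adaptor probe sets below background, 2 were higher and 15 lower in aex-3 SUMO, and 2 higher and 11 lower in myo-4 SUMO. Of all calls in that fit, 49.2% were higher in aex-3 SUMO and 54% in myo-4 SUMO. The median change of all probe sets was -0.11 and -0.05. The share among all probe sets below background was not computed, so these counts cannot be read as particular to the adaptors.

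Of the fbxb genes, fbxb-36, an annotated pseudogene, was the 1 called, with 16.6, 13.5 and 16.9 in aex-3 SUMO and 16.7, 18.5 and 19.8 in myo-4 SUMO, against 26.01, 32.2 and 23.4 in N2. The change was -0.73 ± 0.20 (adjusted p = 0.00852) in aex-3 SUMO and ended under quantile normalization. In myo-4 SUMO it was -0.52 ± 0.20 (adjusted p = 0.0459) and ended under 12 of 16 alternatives. Among the fbxc genes, fbxc-32 rose, at 28.9, 35.1 and 47.2 in aex-3 SUMO and 33.8, 29 and 25.7 in myo-4 SUMO, against 15.96, 18.9 and 12.6 in N2. Its groups did not overlap, with 1.14 ± 0.21 (adjusted p = 0.00105) and 0.84 ± 0.21 (adjusted p = 0.00712). Brighter members were fbxc-47, which averaged 104 ± 5.95 in aex-3 SUMO, 91.7 ± 9.14 in myo-4 SUMO and 70.6 ± 5.86 in N2 and rose in both lines, and fbxc-45, at 53.9 ± 8.18, 52.7 ± 12.3 and 47.1 ± 2.20 in the same groups, which passed in neither (adjusted p = 0.407 and adjusted p = 0.549). The call of fbxc-47 in myo-4 SUMO (adjusted p = 0.0286) ended without N2 replicate 1 and without myo-4 SUMO replicate 1 or 2. Of the 20 probe sets of annotated pseudogenes above background, 1 rose and 5 fell in aex-3 SUMO, and 1 rose and 5 fell in myo-4 SUMO. In each line the 1 was that of bath-12 and the 5 were those of fbxa-58, fbxb-36, math-27, math-35 and math-47. Over all probe sets tested, 24.1% rose and 24% fell in aex-3 SUMO, and 24% rose and 20.3% fell in myo-4 SUMO.

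Several genes were measured more than once, and the probe sets of 1 of them disagreed. Of 13 genes with several probe sets, 4 had at least 2 above background. Those of bath-26 both fell, as given above. One probe set of bath-42 had 418, 399 and 446 in aex-3 SUMO and 426, 396 and 380 in myo-4 SUMO, against 299, 252 and 262 in N2, and rose by 0.63 ± 0.11 (adjusted p = 0.000555) and 0.56 ± 0.11 (adjusted p = 0.00136). The other, which is the brightest of all members, overlapped with N2 through the 640 of N2 replicate 1. It gave 0.44 ± 0.16 (adjusted p = 0.0388) in aex-3 SUMO, a call that ended under 10 of 17 alternatives, and 0.41 ± 0.16 (adjusted p = 0.0545) in myo-4 SUMO. For fbxc-50 one probe set had 99.3, 113.3 and 119.1 in aex-3 SUMO and 101, 108 and 88.0 in myo-4 SUMO, against 63.6, 57.1 and 47.6 in N2, a change of 0.96 ± 0.14 (adjusted p = 0.000215) and 0.81 ± 0.14 (adjusted p = 0.00073). The other ran the opposite way, at 13.7, 14.2 and 12.4 in aex-3 SUMO and 19.9, 18.7 and 18.3 in myo-4 SUMO, against 26, 39.9 and 45.02 in N2, a change of -1.33 ± 0.21 (adjusted p = 0.000378) and -0.87 ± 0.21 (adjusted p = 0.00553). Which transcripts each detects was not analysed here, so no direction is given for fbxc-50. Both probe sets of bath-44 passed higher in myo-4 SUMO (adjusted p = 0.0197 and adjusted p = 0.0196) and neither in aex-3 SUMO (adjusted p = 0.0858 and adjusted p = 0.0501).

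**Figure D4:**
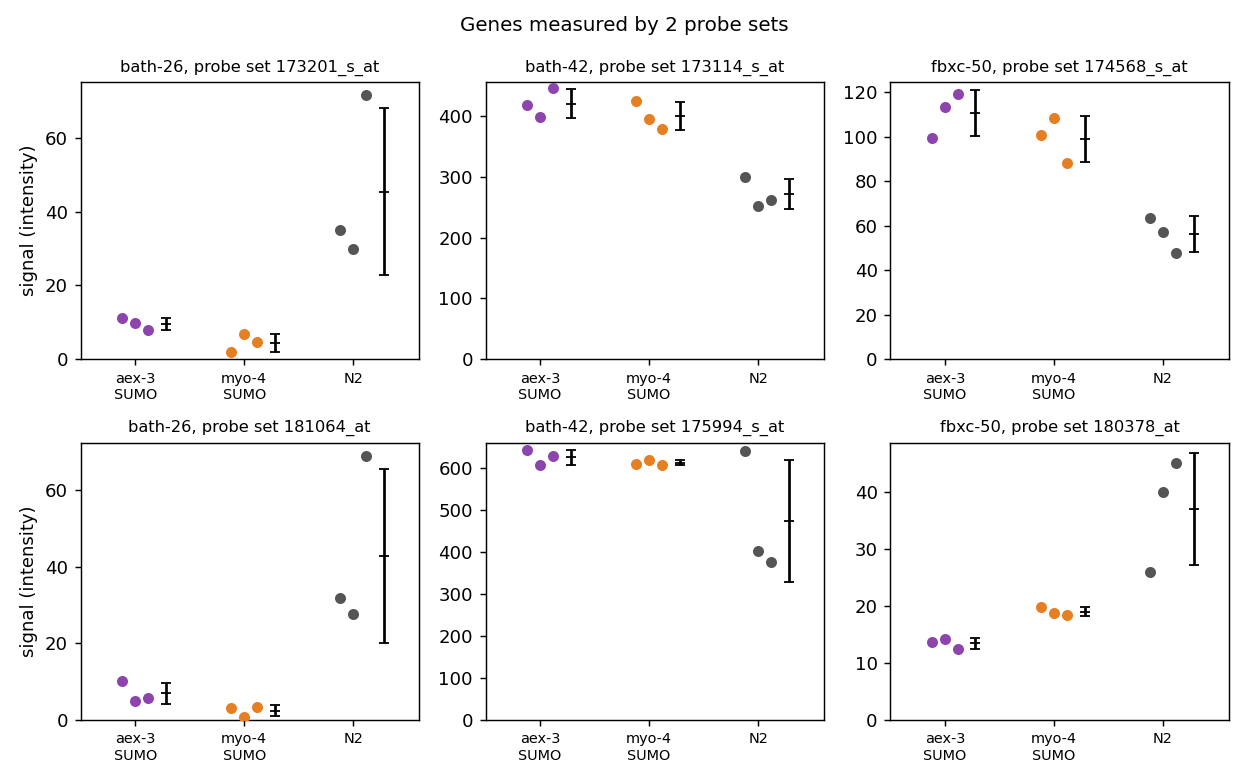
Signal (y axis, linear, from 0) on each array, by group (x axis), for the 2 probe sets of bath-26 (left), bath-42 (middle) and fbxc-50 (right), with the bar beside the points showing mean ± SD of 3 arrays. Both bath-26 probe sets are low in the lines, 1 N2 array of the lower bath-42 panel reaches 640, and the fbxc-50 probe sets run in opposite directions.

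Because these families sit in clusters, neighbours were set beside each other. In the gene table of assembly WBcel235, 505 genes carry such names, of which 312 are next to another, and the longest run holds 14 genes on chromosome II. That run begins with bath-46, bath-26 and bath-47 and also holds fbxa-158. Both genes were above background in 22 adjacent pairs. In aex-3 SUMO both rose in 6 pairs, both fell in 6, 1 of them was called in 7 and none in 3. In myo-4 SUMO the counts were 4, 7, 7 and 4. No pair was called in opposite directions in either line. Some genes stand in several of these pairs, and adjacent pairs of other genes were not counted. The counts therefore have no share over all neighbours beside them. Among the pairs called alike in aex-3 SUMO were btb-7 with btb-6 and bath-7 with bath-2, which rose. Of the pairs that fell in both lines, bath-46 with bath-26, bath-26 with bath-47 and math-21 with math-20 each hold a gene that entered the test through N2 alone. The filter favoured a fall of that gene, so the agreement of these pairs is no separate result. Similar copies can share probe sequence, and how far that ties neighbours was not tested.

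The lines were also compared with each other, which does not involve the control. No adaptor probe set differed between myo-4 SUMO and aex-3 SUMO at an adjusted p under 0.05 in limma, where 34 of 14204 probe sets (0.239%) did, 0.183% higher and 0.0563% lower, and at an unadjusted p under 0.05 there were 17 of 141 (12.1%), against 8.78% of all probe sets. The groups did not overlap for 13 members higher and 19 lower in myo-4 SUMO, where 12.6% and 8.24% of all probe sets were so placed. The median log2 difference of the members was -0.08. The smallest adjusted p was that of fbxc-58, with 53.6, 55.1 and 53.9 in myo-4 SUMO, against 35.4, 29.6 and 28.7 in aex-3 SUMO. The 2 groups did not overlap, and the difference was 0.77 ± 0.15 (adjusted p = 0.0609). It passed without N2 replicate 1 (adjusted p = 0.0353) and without N2 replicate 3 (adjusted p = 0.0292), which leave its values as they are and change the pooled spread. Against N2, at 34.4, 34.0 and 43.6, fbxc-58 rose in myo-4 SUMO by 0.53 ± 0.15 (adjusted p = 0.0127) and differed by -0.24 ± 0.15 in aex-3 SUMO (adjusted p = 0.196). For fbxa-107 the difference between the lines was -0.64 ± 0.17 (adjusted p = 0.198), and for fbxa-182, with 11.2, 7.97 and 9.90 in myo-4 SUMO and 15.8, 19.5 and 19.01 in aex-3 SUMO, it was -0.81 ± 0.23 (adjusted p = 0.242).

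The proteins that the adaptors bind were followed from lists of the ligase machinery. Of 17 Skp1-related genes above background, 4 rose and 5 fell in aex-3 SUMO, and 4 rose and 7 fell in myo-4 SUMO. Of all probe sets 24.1% rose and 24% fell in aex-3 SUMO, and 24% rose and 20.3% fell in myo-4 SUMO. Without myo-4 SUMO replicate 1, 2 Skp1-related genes rose in that line. Under quantile normalization 6 rose and 5 fell in aex-3 SUMO and 5 rose and 6 fell in myo-4 SUMO, and under median centring 6 rose and 4 fell, and 5 rose and 5 fell. The signal of skr-2, a close relative of the main SCF subunit skr-1, was 562, 626 and 627 in aex-3 SUMO and 537, 502 and 462 in myo-4 SUMO, against 342, 345 and 313 in N2. It rose by 0.86 ± 0.10 (adjusted p = 7.38e-05) and 0.58 ± 0.10 (adjusted p = 0.000862). Also higher was skr-17, at 232 ± 5.76 in aex-3 SUMO, 213 ± 17.9 in myo-4 SUMO and 128 ± 8.62 in N2. In contrast skr-3, a partner of CUL-6, had 381, 393 and 351 in aex-3 SUMO and 418, 427 and 464 in myo-4 SUMO, against 670, 587 and 716 in N2. Its change was -0.80 ± 0.11 (adjusted p = 0.000134) and -0.59 ± 0.11 (adjusted p = 0.00105). Lower too was skr-20, at 73.6 ± 11.8 in aex-3 SUMO, 53.7 ± 1.46 in myo-4 SUMO and 133 ± 23.7 in N2, with changes of -0.83 ± 0.16 and -1.26 ± 0.16. Both skr-4 and skr-5 fell in each line as well, and the call of skr-4 in aex-3 SUMO (adjusted p = 0.0407) held in 8 of 17 alternatives. Unlike skr-2, skr-1 did not rise. Its change was -0.22 ± 0.11 in aex-3 SUMO (adjusted p = 0.116) and -0.29 ± 0.11 in myo-4 SUMO (adjusted p = 0.044), a call that held in 7 of 17 alternatives.

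**Figure D5:**
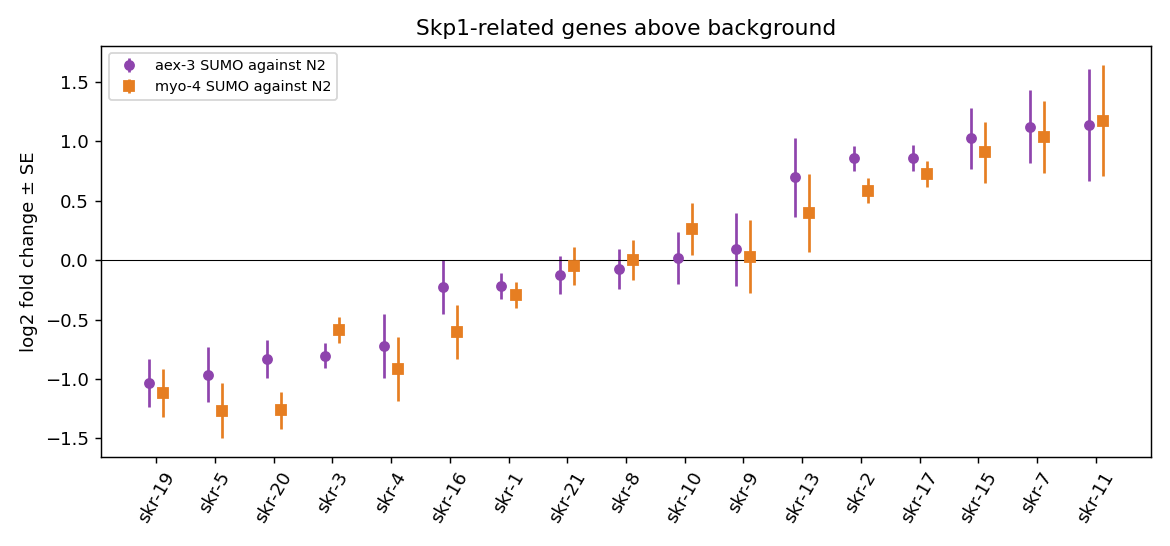
Log2 fold change ± SE against N2 (y axis) of the 17 Skp1-related genes above background (x axis, sorted by the value in aex-3 SUMO), with circles for aex-3 SUMO and squares for myo-4 SUMO. At the left skr-19, skr-5, skr-20, skr-3 and skr-4 lie below 0 in both lines, and to the right skr-2, skr-17, skr-15 and skr-7 lie above it, as does skr-11 with the longest error bars and no call.

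Of 11 cullin, RING and linker genes, 5 rose and 1 fell in aex-3 SUMO, and 4 rose and none fell in myo-4 SUMO, where 24.1% and 24% of all probe sets rose. The rises in aex-3 SUMO numbered 2 without aex-3 SUMO replicate 3, and 3 without aex-3 SUMO replicate 1 or N2 replicate 3, and none fell without aex-3 SUMO replicate 1 or N2 replicate 2. The RING subunit gene rbx-1 averaged 644 ± 21.4 in aex-3 SUMO, 584 ± 18.7 in myo-4 SUMO and 439 ± 66.9 in N2, with changes of 0.56 ± 0.12 (adjusted p = 0.00187) and 0.42 ± 0.12 (adjusted p = 0.011). The scaffold cul-1 rose by 0.39 ± 0.11 (adjusted p = 0.0128) and 0.47 ± 0.11 (adjusted p = 0.00549), and its call in aex-3 SUMO held in 15 of 17 alternatives. The one that fell in aex-3 SUMO was cul-6, at 38.7, 40.97 and 39.96 in aex-3 SUMO and 47.4, 51.8 and 48.5 in myo-4 SUMO, against 51.4, 59.6 and 51.7 in N2. Its change was -0.42 ± 0.13 (adjusted p = 0.0157) in aex-3 SUMO, a call that held in 13 of 17 alternatives, and -0.13 ± 0.13 (adjusted p = 0.415) in myo-4 SUMO, where the ranges overlap. The scaffold of BTB adaptors, cul-3, averaged 33.3 ± 2.19 in aex-3 SUMO, 39.4 ± 2.65 in myo-4 SUMO and 30.6 ± 1.498 in N2 and passed in neither comparison (adjusted p = 0.512 and adjusted p = 0.0612). The adaptor zif-1, which directs CUL-2 to germ plasm proteins in somatic cells of the embryo, rose by 0.82 ± 0.15 (adjusted p = 0.000911) and 0.97 ± 0.15 (adjusted p = 0.000359), beside the higher oocyte markers, whose part in this was not tested. With quantile normalization 3 of the 11 rose in aex-3 SUMO and 5 in myo-4 SUMO, with median centring 7 and 9 did, and none fell under either.

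The list for the NEDD8 modifier of cullins had 12 genes above background, most of which attach or remove it. Of these, 6 rose in each line and none fell, where 24.1% and 24% of all probe sets rose. The rises numbered 5 in aex-3 SUMO and 4 in myo-4 SUMO under quantile normalization, and 11 and 9 under median centring, where 71.9% and 70.4% of the calls over all probe sets were higher. Without myo-4 SUMO replicate 2 they numbered 3 in that line. The deneddylase subunit csn-5 rose by 0.50 ± 0.12 (adjusted p = 0.00418) in aex-3 SUMO and 0.51 ± 0.12 (adjusted p = 0.00428) in myo-4 SUMO. Of 11 F-box genes with other names, 5 rose and 2 fell in aex-3 SUMO and 4 rose and 2 fell in myo-4 SUMO. Over all probe sets 24.1% rose and 24% fell in aex-3 SUMO, and 24% rose and 20.3% fell in myo-4 SUMO. The germline sex-determination gene fog-2 averaged 232 ± 15.3 in aex-3 SUMO, 214 ± 28.6 in myo-4 SUMO and 122 ± 14.3 in N2 and rose, as did mec-15, an F-box gene needed in touch neurons, by 0.94 ± 0.12 (adjusted p = 0.000106) and 0.70 ± 0.12 (adjusted p = 0.00067). The fall of mfb-1, whose mammalian homologue is atrogin-1 of wasting muscle, was -1.49 ± 0.17 (adjusted p = 5.96e-05) and -1.64 ± 0.17 (adjusted p = 3.23e-05), with a signal of 51.9, 42.2 and 35.7 in aex-3 SUMO and 36.4, 38.5 and 40.8 in myo-4 SUMO, against 107, 111 and 158.1 in N2. Where 24.1% and 24% of all probe sets rose, 2 of 6 BTB adaptor genes with other names rose in each line and none fell. One is mel-26, the CUL-3 adaptor that removes the meiotic katanin MEI-1 in the embryo, at 306, 323 and 315 in aex-3 SUMO and 328, 288 and 264 in myo-4 SUMO, against 213, 185 and 202 in N2 (0.65 ± 0.11, adjusted p = 0.000636, and 0.54 ± 0.11, adjusted p = 0.0022). Genes of the intracellular pathogen response were near background, with 2 of 11 tested. With no filter 3 of the 11 were lower and none higher in each line. The share of all probe sets called lower in that fit was not computed, so this count cannot be read as particular to these genes. Among those below background, pals-6 had 6.92, 9.65 and 4.94 in aex-3 SUMO and 5.50, 1.08 and 6.81 in myo-4 SUMO, against 29.5, 13.5 and 31 in N2, and eol-1 averaged 9.34 ± 2.35 in aex-3 SUMO, 7.69 ± 1.32 in myo-4 SUMO and 22.7 ± 6.85 in N2. Of the tested genes pals-22, a repressor of that response, was lower in aex-3 SUMO (-0.62 ± 0.23, adjusted p = 0.0419), a call that held in 8 of 16 alternatives, and differed by -0.58 ± 0.23 in myo-4 SUMO (adjusted p = 0.0577).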

How the data were processed

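The authors deposited 1 signal (intensity) per probe set for each of the 9 arrays. The submitters' processing notes name GCOS without a version. Further steps are not given in the sources used here. The 2% trimmed means of the arrays were 100.03 to 100.04, so the values were used as deposited. Array medians were 23.2 to 24.6 in aex-3 SUMO, 24.8 to 25.7 in myo-4 SUMO and 27.6 to 28.6 in N2, an offset that cannot be told apart from the comparisons with N2. Precision is limited by the 3 arrays a group.

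Of 22625 probe sets, 77 controls were left out and the background filter kept 14204 of the remaining 22548. The constant added before taking log2, 1.623, is the 10th percentile of signal (median of the arrays). Models were fitted with R 4.3.3 and limma 3.58.1. Its eBayes step used an intensity trend, and there were 6 residual and 6.88 prior degrees of freedom. All 9 arrays shared 1 spread. Tests were two-sided, with Benjamini-Hochberg adjustment over all probe sets tested and a threshold of 0.05. The procedure was tested on simulated data in which few probe sets changed, all upward and only in aex-3 SUMO. Here many changed in both directions, so the simulation gives no error rate for these comparisons.

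Genes came from the platform annotation, and chromosomes, pseudogenes and neighbours from a RefSeq table of assembly WBcel235. A further 29 probe sets that list several genes including a member were left out. Sequences of probes and promoters were not used here. Same-numbered replicates were not taken as pairs, since their deviations correlated at -0.194 to 0.0295.

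Named genes are, per comparison with N2, up to 10 highest and 10 lowest changes among called members whose groups do not overlap (5 and 5 between the lines), the 3 brightest of each family, and math-33, bath-42, bath-15, fbxa-75 and fbxa-158. Up to 4 genes with the smallest p came from each ligase list, represented by 1 probe set per gene. Genes outside this rule (fbxa-5, fbxa-58, fbxa-140, fbxa-182, fbxa-188, fbxa-191, fbxc-58, bath-2, bath-7, bath-44, btb-7, math-27, math-35, math-47, cul-3, pals-6, eol-1, skr-1, skr-4, skr-5, skr-7, skr-11, skr-15 and skr-19) were named after their values were seen. The members and lists were chosen with earlier results of these data known. Alternatives were 2 other scalings, other filters and pseudocounts, no intensity trend, the replicate number as a block and each array left out in turn. Chosen after seeing the data were the bioB background, plain probe set names only, and 1 probe set per gene.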

Additional observations from a re-analysis of the deposited data

Results flagged for a closer look

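Of 29 probe sets that list several genes with at least 1 adaptor gene, and so entered no comparison above, 11 were above background. In aex-3 SUMO 5 of them rose and 4 fell, where 24.1% of all probe sets tested rose and 24% fell. In myo-4 SUMO 5 rose and 6 fell, where 24% rose and 20.3% fell. The changes of the 5 that rose are given first. One that lists 2 bath genes changed by 1.14 in aex-3 SUMO and 0.902 in myo-4 SUMO on the log2 scale. Another pair of bath genes has 2 such probe sets, with 0.913 and 0.643 for the brighter, and 0.665 and 0.553 for the dimmer, in aex-3 SUMO and myo-4 SUMO. A probe set listing a bath gene beside another gene gave 0.648 in aex-3 SUMO and 0.676 in myo-4 SUMO. The last, which lists 2 btb genes, gave 0.816 and 0.463. Of those that were lower, 3 that each list 2 fbxa genes gave -1.61, -1.34 and -1.20 in aex-3 SUMO and -1.88, -1.12 and -1.22 in myo-4 SUMO. A probe set listing another pair of fbxa genes gave -0.89 and -0.70. One that lists an fbxa gene beside another gene gave -0.51 and -0.59, and one that lists 5 fbxc genes gave -0.03 and -0.49, in aex-3 SUMO and myo-4 SUMO. In aex-3 SUMO neither of these passed in limma (adjusted p = 0.0501 and adjusted p = 0.87). With 3 arrays a group, single arrays were not tested as outliers.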

How the results depend on the processing

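Replicate numbers did not pair the samples. With the number as a replicate block, 34 adaptor probe sets rose and 46 fell in aex-3 SUMO, 28 rose and 43 fell in myo-4 SUMO, and 0 differed between the lines. Leaving out each array in turn gave 29 to 39 higher and 40 to 51 lower in aex-3 SUMO, 20 to 37 higher and 37 to 46 lower in myo-4 SUMO, and 0 to 1 higher and 0 to 0 lower between the lines. The count of 20 came without myo-4 SUMO replicate 1. A filter at the 60th percentile tested 52 adaptor probe sets, and of these 20 rose and 20 fell in aex-3 SUMO and 23 rose and 19 fell in myo-4 SUMO, with fewer probe sets tested. The number above background was 52 with that filter, 74 where all 9 arrays had to pass and 79 against the dimmest bioB spike-in, and 128 where all 3 arrays of at least 1 group had to pass. The median log2 change of the members reversed to 0.0778 in aex-3 SUMO under median centring, and to 0.133 in aex-3 SUMO and 0.127 in myo-4 SUMO with the filter at the 60th percentile. Median centring gave 46 higher and 39 lower in aex-3 SUMO and 41 and 37 in myo-4 SUMO. Quantile normalization, no filter, pseudocounts of 1 and 16, no intensity trend, plain probe sets only and 1 probe set per gene kept each count within 1.5 times. Of the named members' calls, 32 of 35 in aex-3 SUMO and 27 of 34 in myo-4 SUMO held under every alternative that tested them. Where counts moved, the cause was not tested. Dim members limit these results, with only 16 of 426 above a mean signal of 100.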
